A study of Mus musculus with 2 samples.

Results

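Immediate-early genes are transcribed directly after a stimulus, before any new protein is made. The 9 described here, Fos, Fosb, Jun, Junb, Jund, Atf3, Egr1, Ier2 and Ier3, were chosen by name among the 25507 gene symbols of the count tables, and all 9 had a row in both tables. The tables hold unique molecular identifier (UMI) counts, each UMI standing for 1 captured RNA molecule, for single cells from the pancreas of wild-type mouse embryos at the embryonic stage E14.5. The cells, called islet cells in the labels, had passed a flow sort that took both low and high fluorescence of Ngn3eGFP, a reporter named after Neurog3, and were captured in droplets on the inDrop platform. Both deposited libraries, called library 1 and library 2, carry the same labels, so that every group below shares genotype and age. Whether a given cell came from low or high fluorescence is not recorded. The groups may differ in this, and its part in the values below was not tested. The labels do not state that the libraries came from separate animals. P-values therefore measure only the spread left between sums of these samples, which may be technical. That spread was estimated in part, or in 1 fit wholly, from all genes together.

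Proteins of the Fos family (among the members Fos and Fosb) pair with proteins of the Jun family (Jun, Junb, Jund) to form AP-1, a transcription factor made of 2 subunits. Atf3 is a stress-inducible member of the ATF/CREB family, Egr1 is a zinc-finger transcription factor induced through MAP kinase signals, and Ier2 and Ier3 are small, rapidly induced genes, of which Ier3 is known for its part in cell survival. Growth factors, cytokines, adhesion and stress induce these genes, and so can the enzymatic dissociation of a tissue into single cells. The dissociation method is not given in the sources used here, and its part in the values below was not tested.

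The tables held 535 barcodes in library 1 and 1100 in library 2, of which 515 and 1070 cells were kept, and 3 barcodes occurred in both libraries. Kept cells were grouped by raw UMIs of marker genes that are not members. Csf1r, a macrophage receptor gene, marked 7 and 35 cells, and Cpa1, which encodes an acinar digestive enzyme, marked 9 and 84 cells. Spp1, expressed in the trunk epithelium from which endocrine cells arise, marked 97 and 213 cells. Neurog3, the transcription factor that starts endocrine differentiation, marked 86 and 135 cells, and Chgb, a granule protein of endocrine cells, marked 84 and 126 cells. Glucagon (Gcg) marked 29 and 56 cells, and insulin (Ins1 plus Ins2) marked 39 and 99 cells. Cells that held Neurog3 and Chgb together numbered 6 and 7, and 157 and 310 cells reached no threshold.

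Markers not used to form the groups were compared across them. Sox9 reached 789 and 1078 CPM (UMIs per 1000000 UMIs of that group and library) in the Spp1 group, against 269 and 239 CPM in the Neurog3 group. Insm1 reached 1237 and 1410.3 CPM in the Neurog3 group, Irx2 192 and 347 CPM in the Gcg group, Iapp 3334 and 5269.7 CPM in the Ins group, Ctrb1 4112 and 7448 CPM in the Cpa1 group, and C1qa 1215 and 1615 CPM in the Csf1r group. The Gcg group was mixed in its markers: 3 beta markers (Iapp, Pdx1 and Nkx6-1) summed to 698 and 2767 CPM there, against 1091 and 1617 CPM in the Chgb group. The 6 macrophage genes listed as markers summed to 5125 and 4998 CPM in the Csf1r group and to between 13.4 and 97.3 CPM in the other 6 groups. The ductal keratin Krt19 was low in the Spp1 group, at 45.4 and 29.4 CPM. The groups were not closed classes, since 43.0% and 40.7% of Neurog3-group cells also held a Spp1 UMI. Median depth per cell lay between 2717 and 6209 UMIs across these 7 groups and libraries, and median mitochondrial share between 2.82% and 4.74%.

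The 9 members together were highest in the Csf1r and Spp1 groups and lowest in the groups with a hormone. Their summed level was 4597 and 5842 CPM in the Csf1r group (library 1, then library 2, here and throughout), 1850.5 and 1851 CPM in the Cpa1 group, and 2996 and 4103 CPM in the Spp1 group. It was 1799.9 and 2439 CPM in the Neurog3 group, 1839 and 1988 CPM in the Chgb group, 925 and 1039.8 CPM in the Gcg group and 993 and 1552 CPM in the Ins group. In bulk sums such as these, fewer expressing cells and less RNA per cell cannot be told apart; shares of cells with a UMI are given further on. Library 2 ran above library 1 for 8 of the 9 members in the Neurog3 and Ins groups, 7 in the Spp1, Chgb, Cpa1 and Csf1r groups and 6 in the Gcg group. The median library 2 to library 1 ratio was 1.57 in the Spp1 group and between 1.07 and 1.35 in the other 6 groups.

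**Figure D1:**
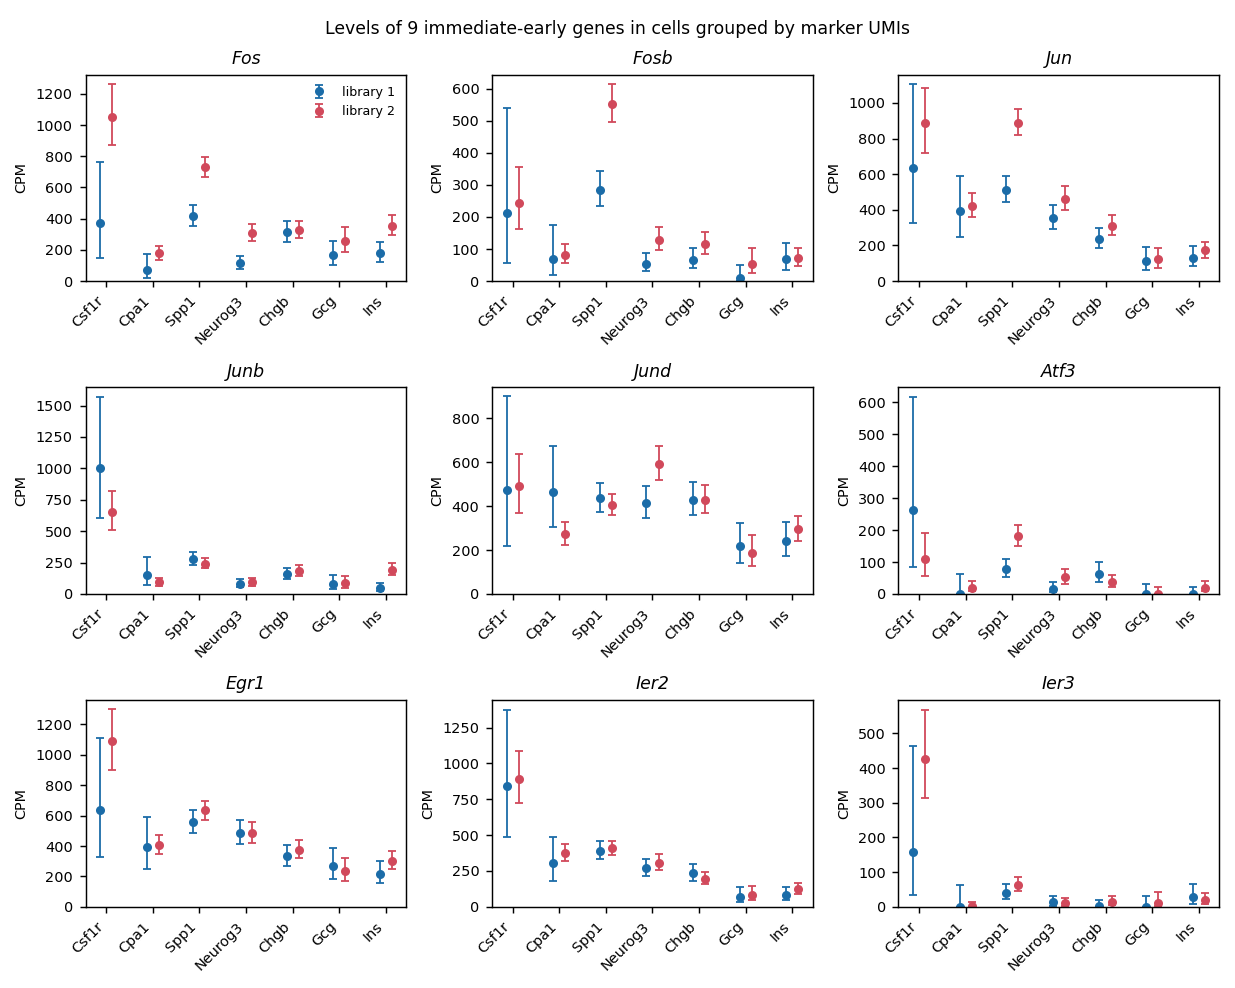
Level of each of the 9 immediate-early genes in CPM (y axis) by marker group (x axis) in library 1 (blue) and library 2 (red), with exact Poisson 95% intervals that cover counting error only. Fosb is highest in the Spp1 group in both libraries, whereas Junb, Ier2 and Ier3 are highest in the Csf1r group, and Atf3 is at 0 UMIs in the Gcg group.

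The first step of endocrine differentiation was read by setting the Neurog3 group against the Spp1 group. Of the 9 members, 6 were lower in Neurog3 cells and 0 were higher in the edgeR quasi-likelihood test, which compared UMI sums per library and group with library as a block. Across all 10116 tested genes, 3.54% were called lower and 5.07% higher, 8.61% in all. Fos and Fosb fell, as did Jun, Junb, Atf3 and Ier3, whereas Jund, Egr1 and Ier2 did not pass the test. DESeq2 called 3 of the 6, Fos, Fosb and Junb. The median log2 fold change of the members was -1.40, against 0.01 over all tested genes.

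Fosb and Fos showed the lowest adjusted p of the members. Fosb, whose product is an AP-1 subunit, had 53.8 and 128 CPM in Neurog3 cells, against 285 and 554 CPM in Spp1 cells. The library values did not overlap between the groups, and the log2 fold change was -2.15 ± 0.26 (SE; adjusted p = 2.24e-09, with 6.02e-14 to 2.12e-05 over 11 alternative settings). Fos had 114 and 308 CPM in Neurog3 cells, against 416 and 728 CPM in Spp1 cells. Its log2 fold change was -1.40 ± 0.20 (adjusted p = 3.22e-07, with 1.49e-10 to 0.00197 over the alternatives), and the Neurog3 value of library 2 lay below the Spp1 value of library 1.

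Within the Jun family, Junb and Jun fell and Jund did not pass. Junb had 79.1 and 93.5 CPM in Neurog3 cells, against 277 and 241 CPM in Spp1 cells, a log2 fold change of -1.54 ± 0.29 (adjusted p = 8.05e-05, with 2.16e-06 to 0.00853 over the alternatives). Jun had 354 and 460.3 CPM in Neurog3 cells, against 512 and 889 CPM in Spp1 cells. Its log2 fold change of -0.72 ± 0.17 (adjusted p = 0.00255) was the smallest of the 6 called, and its adjusted p reached 0.111 among the alternatives. Jund, the Jun gene known for more constitutive expression, had 414 and 593 CPM in Neurog3 cells, against 436 and 405 CPM in Spp1 cells. These Jund values overlapped, and the log2 fold change was 0.32 ± 0.17 (adjusted p = 0.333). Exons of Jun, Junb and Jund overlap exons of Junos, Prdx2 and Gm11175 on the other strand, so that, with the use of strand in the counting not given in the sources used here, part of their UMIs could belong to those genes.

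Atf3 had 15.8 and 51.7 CPM in Neurog3 cells, against 78.2 and 181 CPM in Spp1 cells, a log2 fold change of -1.85 ± 0.41 (adjusted p = 0.000916, with 0.000153 to 0.111 over the alternatives). Ier3 rested on few UMIs, at 12.7 and 9.85 CPM in Neurog3 cells, against 40.4 and 63.4 CPM in Spp1 cells. Its log2 fold change was -2.15 ± 0.60 (adjusted p = 0.0122, with 0.00273 to 0.0473 over 10 alternatives). Both genes were lower in every Neurog3 value than in every Spp1 value. Egr1 had 487 CPM in both Neurog3 sums, against 559.9 and 634 CPM in Spp1 cells, and Ier2 had 269 and 308 CPM in Neurog3 cells, against 391 and 407 CPM in Spp1 cells. Those values did not overlap either, yet the log2 fold changes of -0.25 ± 0.16 for Egr1 (adjusted p = 0.462) and -0.42 ± 0.20 for Ier2 (adjusted p = 0.249) did not pass.

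**Figure D2:**
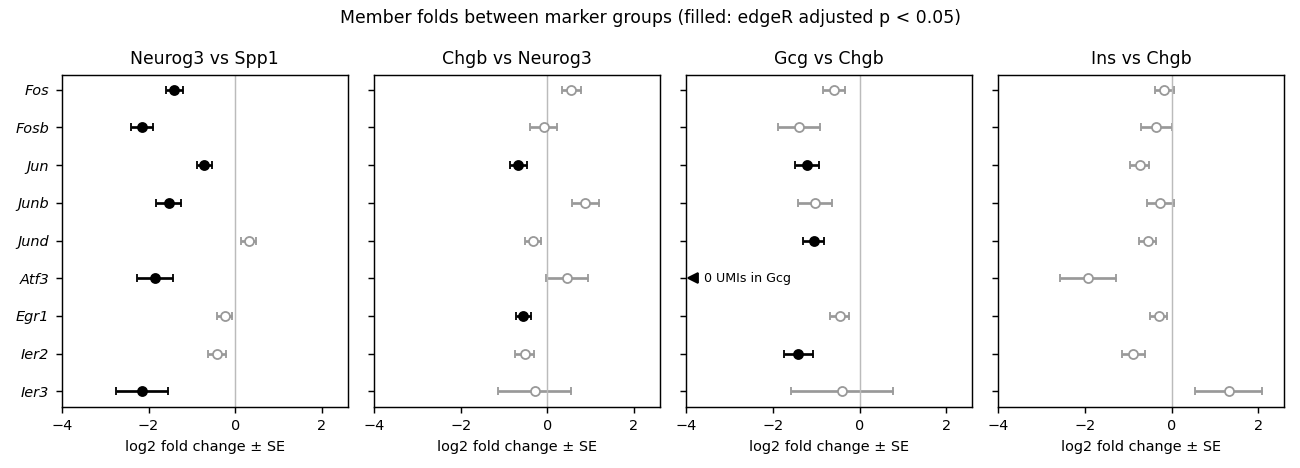
Log2 fold change of the 9 members (x axis, error bars ± SE of the edgeR fit) for Neurog3 vs Spp1, Chgb vs Neurog3, Gcg vs Chgb and Ins vs Chgb, with filled points where the adjusted p was under 0.05. Filled points number 6, 2, 4 and 0 in that order, and the arrow marks Atf3, which had 0 UMIs in the Gcg group.

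The stretches before the RefSeq starts of the genes that fell in the Neurog3 group are shown because cAMP-response elements and related sites close to the start are known to take part in the induction of several immediate-early genes. The 150 bases before the RefSeq start (GRCm38.p6) were searched on both strands for TGACG, the core half-site of a cAMP-response element, and for TGACNTCA, and capitals mark the matches. The Atf3 stretch lies inside the gene as GENCODE M21 annotates it (chr1:191170296-191218039, minus strand), at an internal start.
Fos, chr12:85473740-85473889, plus strand: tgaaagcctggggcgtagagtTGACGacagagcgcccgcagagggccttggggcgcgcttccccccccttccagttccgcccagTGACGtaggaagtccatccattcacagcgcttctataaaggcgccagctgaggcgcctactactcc
Fosb, chr7:19310046-19310195, minus strand: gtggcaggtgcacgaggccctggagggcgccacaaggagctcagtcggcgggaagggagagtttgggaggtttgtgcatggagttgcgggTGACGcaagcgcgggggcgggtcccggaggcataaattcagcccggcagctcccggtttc
Jun, chr4:95052223-95052372, minus strand: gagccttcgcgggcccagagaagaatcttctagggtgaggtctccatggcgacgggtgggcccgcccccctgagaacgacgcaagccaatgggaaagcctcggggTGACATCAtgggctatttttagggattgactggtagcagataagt
Junb, chr8:84978749-84978898, minus strand: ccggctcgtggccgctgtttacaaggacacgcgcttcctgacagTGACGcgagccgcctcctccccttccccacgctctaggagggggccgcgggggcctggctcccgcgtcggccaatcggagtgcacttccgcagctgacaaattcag
Atf3, chr1:191183334-191183483, minus strand: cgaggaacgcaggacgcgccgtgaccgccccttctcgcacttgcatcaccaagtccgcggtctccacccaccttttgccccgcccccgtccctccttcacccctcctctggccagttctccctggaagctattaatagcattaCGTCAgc
Ier3, chr17:35821563-35821712, plus strand: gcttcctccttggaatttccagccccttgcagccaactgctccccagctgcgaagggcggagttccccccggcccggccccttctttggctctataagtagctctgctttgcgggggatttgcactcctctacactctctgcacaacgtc

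TGACG lay in 4 of these 6 stretches, with 2 matches in Fos, 1 each in Fosb and Junb, and 1 on the other strand in Atf3, where it is written CGTCA. Jun held TGACNTCA, 45 bases before the start, and Ier3 held neither. The motifs can overlap in a full palindromic element, which would count under both, and no stretch held such an overlap. Of all 32851 promoter entries, 13.3% held TGACG and 5.70% held TGACNTCA in the same window. Of the 9 members, 7 matched an entry in the promoter table. The matches are letters in a window and were not tied to any level.

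The next step set the Chgb group, endocrine cells past the Neurog3 peak, against the Neurog3 group. Jun and Egr1 were lower in Chgb cells, 2 of 9 members, and 0 were higher, while 6.59% of the 10116 tested genes were called lower and 4.27% higher, 10.9% in all. The median log2 fold change of the members was -0.30, against -0.00 over all tested genes. Junb and Fos had positive values that did not pass.

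Jun had 238 and 309.6 CPM in Chgb cells, against 354 and 460.3 CPM in Neurog3 cells, a log2 fold change of -0.67 ± 0.19 (adjusted p = 0.0115). Egr1 had 332 and 376 CPM in Chgb cells, against 487 CPM in both Neurog3 sums, a log2 fold change of -0.55 ± 0.18 (adjusted p = 0.0285). The groups did not overlap for either gene, but both calls depended on settings: Jun passed in 7 and Egr1 in 4 of 11 alternatives, with adjusted p between 0.00690 and 0.175 for Jun and between 0.0161 and 0.283 for Egr1. Junb had 158 and 182 CPM in Chgb cells, against 79.1 and 93.5 CPM in Neurog3 cells, a log2 fold change of 0.88 ± 0.31 (adjusted p = 0.0564). Junb passed in 2 of 11 alternatives. Without the library block 0 members were called. Fos had 312 and 327 CPM in Chgb cells, against 114 and 308 CPM in Neurog3 cells, and its log2 fold change was 1.45 in library 1 and 0.09 in library 2.

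Levels were lower still in glucagon cells. In the Gcg group, 4 of 9 members were lower than in the Chgb group and 0 were higher, while 0.672% of the 10116 tested genes were called lower and 0.643% higher, 1.31% in all. The 4 were Jund, Jun, Ier2 and Atf3, of which DESeq2 called 0 and the fit without the library block called 1, Ier2. The median log2 fold change of the members was -1.06, against -0.01 over all tested genes, and all 9 values were negative.

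Jund had 218 and 188 CPM in Gcg cells, against 429.6 and 430.0 CPM in Chgb cells, a log2 fold change of -1.06 ± 0.24 (adjusted p = 0.00480). Jun had 113 and 122 CPM in Gcg cells, against 238 and 309.6 CPM in Chgb cells, a log2 fold change of -1.20 ± 0.28 (adjusted p = 0.00717). Ier2, a short nuclear protein gene, had 69.8 and 85.1 CPM in Gcg cells, against 235 and 197 CPM in Chgb cells, a log2 fold change of -1.41 ± 0.33 (adjusted p = 0.0101). None of these 3 overlapped between the groups. Atf3 had 0 UMIs in Gcg cells of either library, against 63.8 and 36.9 CPM in Chgb cells (adjusted p = 0.0105). With both libraries pooled, that is 0 against 34 UMIs, or at least 4.49-fold lower when the Gcg group is set to a floor of 3 counts over the group, 10.8 CPM. Over 11 alternatives the adjusted p ranged from 0.000317 to 0.133 for Jund, from 0.000871 to 0.347 for Jun, from 0.00170 to 0.194 for Ier2 and from 0.00188 to 0.114 for Atf3. Fos had 166 and 255 CPM in Gcg cells, against 312 and 327 CPM in Chgb cells, and its log2 fold change of -0.59 did not pass (adjusted p = 0.393). Ier3 had 2 UMIs in the Gcg group and 7 in the Chgb group, a ratio of rates of 0.722 with an exact 95% counting interval of 0.0732 to 3.79.

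In insulin cells no member was called against the Chgb group: 0 of 9 in edgeR and 0 in DESeq2, with 4 at an unadjusted p under 0.05 in edgeR, all lower in Ins cells. In that comparison 0.909% of the 10116 tested genes were called lower and 2.01% higher, 2.92% in all. Ier2 had 80.3 and 125 CPM in Ins cells, against 235 and 197 CPM in Chgb cells, a log2 fold change of -0.89 ± 0.27 (adjusted p = 0.0544). Jun had 132 and 173 CPM in Ins cells, against 238 and 309.6 CPM in Chgb cells, a log2 fold change of -0.74 ± 0.23 (adjusted p = 0.0591). Both genes lay lower in each Ins value than in each Chgb value and passed in some alternatives, Ier2 in 3 and Jun in 2 of 11, with adjusted p from 0.0337 to 0.351 for Ier2 and from 0.0377 to 0.679 for Jun. Fos had 178 and 354 CPM in Ins cells, against 312 and 327 CPM in Chgb cells, and these values overlapped. Whether the Gcg and Ins differences from the shared Chgb group differ from each other was not tested.

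Outside the endocrine path, Cpa1 and Csf1r cells missed the planned minimum of 10 cells per library. They were compared with the Spp1 group in a fit with a minimum of 5 cells, chosen after the cell numbers were seen, so that the library 1 values rest on 9 and 7 cells. The spread in this fit came from the trend over all genes, not from the single gene. Acinar-like Cpa1 cells were lower than Spp1 cells for 5 of 9 members and higher for 0, while 3.11% of 10675 tested genes were called lower and 3.62% higher, 6.73% in all. The 5 were Fos, Fosb, Atf3, Ier3 and Junb. The median log2 fold change of the members was -1.18, against -0.07 over all tested genes.

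Fos had 68.5 and 177 CPM in Cpa1 cells, against 416 and 728 CPM in Spp1 cells, a log2 fold change of -1.96 ± 0.33 (adjusted p = 3.37e-07). Fosb had 68.5 and 82.2 CPM in Cpa1 cells, against 285 and 554 CPM in Spp1 cells, a log2 fold change of -2.43 ± 0.40 (adjusted p = 2.02e-07). Atf3 had 0 and 19.9 CPM in Cpa1 cells, against 78.2 and 181 CPM in Spp1 cells, a log2 fold change of -2.95 ± 0.60 (adjusted p = 6.48e-05). These 3 genes passed in all 9 alternatives, with adjusted p of at most 0.000357 for Fos, 1.86e-05 for Fosb and 0.0289 for Atf3. Ier3 had 1 UMI in Cpa1 cells and 57 in Spp1 cells, a ratio of rates of 0.0398 with an exact 95% counting interval of 0.000991 to 0.231 (adjusted p = 0.000595, at most 0.0189 over the alternatives). Junb had 154 and 94.7 CPM in Cpa1 cells, against 277 and 241 CPM in Spp1 cells, a log2 fold change of -1.18 ± 0.38 (adjusted p = 0.0348, reaching 0.250 over the alternatives). Ier2 had 308 and 374 CPM in Cpa1 cells, against 391 and 407 CPM in Spp1 cells, and its log2 fold change of -0.07 did not pass.

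Macrophage-like Csf1r cells were the highest group for 7 of the 9 members by mean level, which gives the few cells of library 1 equal weight. For Atf3 library 1 held 5 UMIs, and with both libraries pooled Atf3 had 132 CPM in Csf1r cells, against 142 CPM in Spp1 cells. Fos in library 1 was also lower in Csf1r cells, at 370 CPM against 416 CPM. Ier3, Junb and Ier2 were higher in Csf1r cells than in Spp1 cells, 3 of 9 members, and 0 were lower, while 4.41% of 10675 tested genes were called higher and 4.42% lower, 8.83% in all. In this comparison the scaling mattered: the median of all genes lay at -0.35 on the log2 scale with TMM scaling and at -0.11 with DESeq2 size factors, which moved the split of calls to 606 higher and 381 lower from 471 higher and 472 lower. Fold changes relative to that median are therefore given beside the fitted ones.

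Ier3 had 159 and 426 CPM in Csf1r cells, against 40.4 and 63.4 CPM in Spp1 cells, a log2 fold change of 2.48 ± 0.51, or 2.83 relative to all genes (adjusted p = 4.03e-05, with 1.99e-06 to 0.213 over 10 alternatives). Junb had 1004 and 653 CPM in Csf1r cells, against 277 and 241 CPM in Spp1 cells, a log2 fold change of 1.31 ± 0.34, or 1.66 relative to all genes (adjusted p = 0.00285, with 1.69e-05 to 0.127). Ier2 had 845 and 889 CPM in Csf1r cells, against 391 and 407 CPM in Spp1 cells, a log2 fold change of 0.94 ± 0.31, or 1.28 relative to all genes (adjusted p = 0.0320, with 0.000184 to 0.457). The groups did not overlap for any of the 3. Fosb ran the other way, at 211 and 245 CPM in Csf1r cells against 285 and 554 CPM in Spp1 cells, with a log2 fold change of -1.08 ± 0.41 that did not pass (adjusted p = 0.0843) and -0.73 relative to all genes. Egr1 had 634 and 1089 CPM in Csf1r cells, against 559.9 and 634 CPM in Spp1 cells, and passed in 1 of 10 alternatives, with DESeq2 size factors (log2 fold change 0.76, adjusted p = 0.0268). The part of free RNA in these levels was not tested; Ins1, an insulin gene that macrophages should lack, had a UMI in 28.6% and 8.57% of Csf1r cells and in 13.4% and 7.51% of Spp1 cells, whose median depths were 2724 and 2970 UMIs and 3870 and 2807 UMIs.

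The order of groups differed from member to member. By mean of the libraries, Fos ran in the order Csf1r, Spp1, Chgb, Ins, Neurog3, Gcg and Cpa1, and the only neighbours whose library values did not overlap were Spp1 and Chgb. Jun ran in the order Csf1r, Spp1, Cpa1, Neurog3, Chgb, Ins and Gcg, with overlap only between Csf1r and Spp1 and between Cpa1 and Neurog3. Jund had the Neurog3 group first, at a mean of 504 ± 126 CPM (SD, n = 2), overlapping the Csf1r group at 483 ± 10.1 CPM. Egr1 and Ier2 both began with Csf1r and Spp1 and ended with Chgb, Ins and Gcg. Fosb ran in the order Spp1, Csf1r, Chgb, Neurog3, Cpa1, Ins and Gcg, with Spp1, Csf1r and Ins each clear of the group after it. Junb ran in the order Csf1r, Spp1, Chgb, Cpa1, Ins, Neurog3 and Gcg, and its last 4 groups overlapped from neighbour to neighbour. Atf3 was clear of the next group at Spp1, which overlapped Csf1r above it. Ier3 put the Ins group next after Csf1r and Spp1, at 28.7 and 19.8 CPM, above the Neurog3 group at 12.7 and 9.85 CPM.

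Within the Spp1 group the libraries themselves differed for some members. Atf3 was 2.31 times, Fosb 1.94 times, Fos 1.75 times and Jun 1.74 times as high in library 2 as in library 1. Ier2, Egr1, Jund and Junb lay close together, with ratios of 1.04, 1.13, 0.929 and 0.870. The members that differed between the libraries of the same label were thus mostly those that fell in the Neurog3 group, and within each library alone the Neurog3 value was still the lower one for all 6: the log2 fold changes for Fosb were -2.38 and -2.10, for Fos -1.86 and -1.24, and for Jun -0.53 and -0.95.

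Fewer cells with a UMI went with the lower sums. To compare cells at equal depth, each cell was thinned at random to 1500 UMIs, which left out 3 and 16 Spp1 cells and 2 and 7 Neurog3 cells. A Fos UMI was then present in 10.7% and 22.7% of Neurog3 cells, against 33.0% and 52.8% of Spp1 cells. A Fosb UMI was present in 4.76% and 11.7% of Neurog3 cells, against 19.1% and 38.1% of Spp1 cells. Without thinning the Fos shares were 19.8% and 34.1% in Neurog3 cells, against 59.8% and 64.3% in Spp1 cells, and the Fosb shares were 6.98% and 17.0%, against 33.0% and 48.4%. Junb was found in 10.7% and 10.2% of thinned Neurog3 cells, against 29.8% and 25.4% of Spp1 cells.

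Jund and Egr1, both widely detected, had shares closer together in the groups. Jund was found in 40.5% and 52.3% of thinned Neurog3 cells, against 40.4% and 42.6% of Spp1 cells, and Egr1 in 35.7% and 46.1%, against 44.7% and 54.8%. Jun was found in 34.5% and 39.1% of Neurog3 cells, against 40.4% and 66.0% of Spp1 cells, a wide gap in library 2. Atf3 and Ier3 were sparse: Atf3 was found in 1.19% and 6.25% of Neurog3 cells, against 7.45% and 18.8% of Spp1 cells, and Ier3 in 1.19% and 1.56%, against 7.45% and 7.11%. Without thinning, Ier3 was found in 9.28% and 10.8% and Atf3 in 22.7% and 28.2% of Spp1 cells. Ier3 shares without thinning were lower in Neurog3 cells, at 3.49% and 2.96%, and in Chgb cells, at 1.19% and 4.76%. Atf3 was in 0 of 27 and 0 of 52 thinned Gcg cells.

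At 1500 UMIs per cell, members were found together in the same Spp1 cells somewhat more often than their single shares predict. The median thinned Spp1 cell held 3 of the 9 members in each library. In library 2, 29.9% of 197 Spp1 cells held 5 or more members, against 21.7% expected if the members were independent, and in 20 further random thinnings the observed share was 26.4% to 33.5% and the expected share averaged 20.5%. In library 1, 10.6% of 94 cells held 5 or more, against 7.79% expected, and the further thinnings averaged 14.2% observed and 10.01% expected. At 2500 UMIs, with 85 and 132 cells, the shares were 29.4% and 54.5%, against 26.4% and 53.9% expected, and without thinning 51.5% and 52.1%, against 46.4% and 52.9% expected, so that library 2 showed next to no excess at these depths. At the other end, 8.51% and 5.58% of Spp1 cells held none of the 9, against 3.81% and 0.876% expected. Of Neurog3 cells, 1.19% and 7.03% held 5 or more, against 0.685% and 3.01% expected, and 17.9% and 14.1% held none, against 13.3% and 6.02% expected. In the further thinnings of Neurog3 cells, those with none averaged 12.98% and 11.4%, against 11.6% and 6.60% expected, a smaller gap than in the draw shown.

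**Figure D3:**
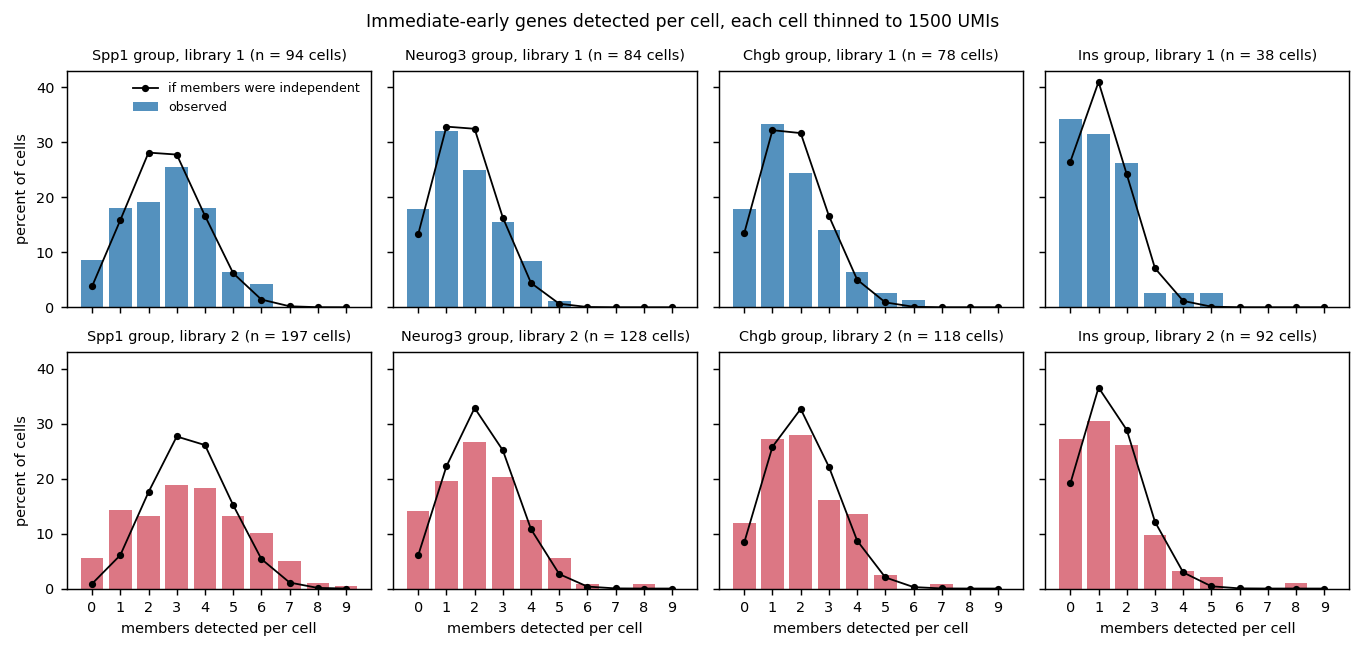
Percent of cells (y axis) by number of the 9 members with a UMI (x axis) after thinning to 1500 UMIs, in the Spp1, Neurog3, Chgb and Ins groups of both libraries; bars are observed and lines are expected if members were independent. Spp1 cells of library 2 hold 5 or more members in 29.9% of cells against 21.7% expected.

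By pair, the ratio of observed to expected cells had a median of 1.12 over the 21 Spp1 pairs of library 1 with at least 5 cells expected, and of 1.17 over 34 pairs of library 2. It was above 1 for 16 and 29 pairs. Fos and Fosb, which share a family, were found together in 1.35 and 1.36 times the number of cells expected. Fosb with Junb stood at 1.68 and 1.58, and Fos with Junb at 1.84 and 1.21. Fos with Jun, the classical AP-1 pair, stood at 1.04 and 1.11. In library 2, where Atf3 could be paired, Atf3 stood at 1.81 with Junb, 1.56 with Fosb and 1.54 with Fos. It stood between 1.16 and 1.43 with Ier2, Jun, Jund and Egr1. Ier3, in the same library, stood at 0.563 with Fosb, the lowest pair, 0.758 with Jun, 0.912 with Egr1 and 0.947 with Fos. With Jund and Ier2 it stood at 1.34 and 1.62. Thinned to 2500 UMIs, which also changed the cells and pairs used, the median was 1.01 over 25 pairs in library 1, of which 13 were above 1, and 1.10 over 35 pairs in library 2, of which 30 were above 1. In the Neurog3 group the median was 1.05 over 6 pairs and 1.18 over 16 pairs.

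**Figure D4:**
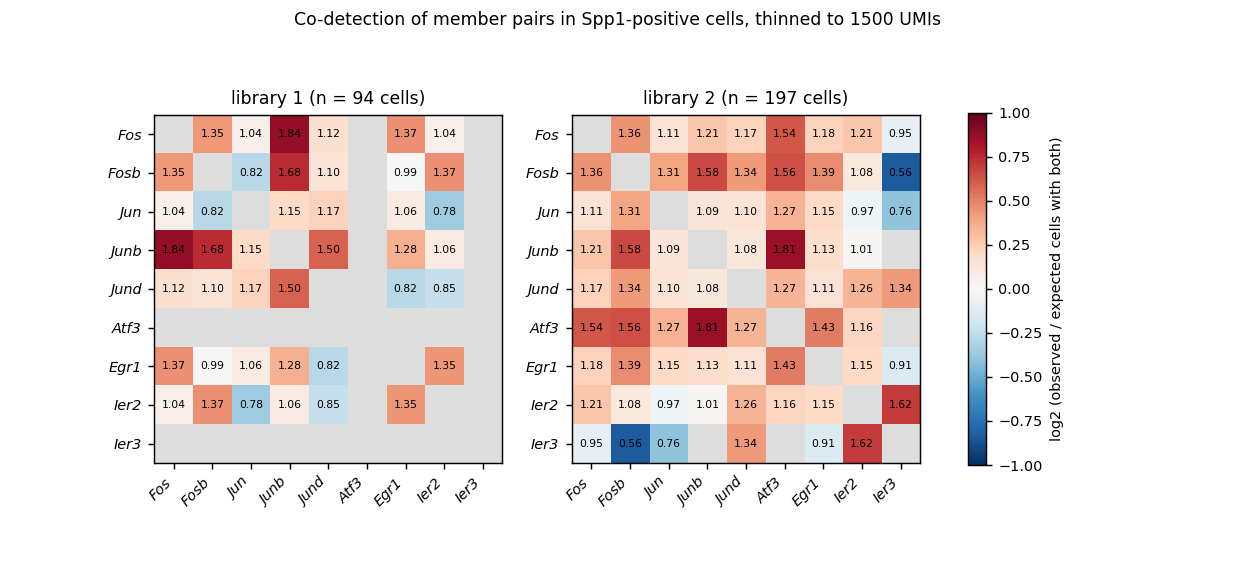
Ratio of observed to expected cells holding both members of a pair in the Spp1 group, thinned to 1500 UMIs, for library 1 (94 cells) and library 2 (197 cells), coloured by its log2, with grey for pairs under 5 expected cells and for the diagonal. Fosb with Junb stands at 1.68 and 1.58, and Fos with Jun at 1.04 and 1.11.

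In Spp1 cells the ratio of variance to mean was higher for the summed members than for the heat shock or the signalling genes. The members had means of 4.39 and 6.04 UMIs per thinned cell there. Those of the heat shock genes were 7.37 and 7.42, and those of the signalling genes 2.34 and 2.41. The variance of the summed member UMIs was 2.76 and 3.49 times the mean across Spp1 cells, against 1.39 and 1.35 for 15 heat shock genes and 1.37 and 1.13 for 20 upstream regulators in the same cells. It was 2.43 and 2.48 times the mean in Neurog3 cells, where the library 1 value lay above all 20 further thinnings (1.57 to 2.38, mean 1.89), 2.34 and 3.18 in Chgb cells, 2.03 and 2.24 in Gcg cells and 2.39 and 3.77 in Ins cells. The tenth of cells with the most member UMIs held 27.6% and 25.6% of them in the Spp1 group, and 40.4% and 41.8% in the Ins group, where the median cell held 1. In Gcg cells this ratio was higher for the heat shock genes than for the members, at 2.98 and 3.43. Their means there were 8.19 and 9.69 UMIs, against 1.67 and 1.62 for the members. Since the ratio can rise with the mean, it does not rank the spread of these lists. The library 2 value of 3.43 lay above all 20 further thinnings (2.10 to 3.36).

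Heat shock genes and the mitochondrial share were set beside the members. The part of stress in the members' levels was not tested. Cells with 2 or more UMIs of the inducible heat shock genes Hspa1a plus Hspa1b numbered 0 and 0 in the Neurog3 group and 2 and 3 in the Spp1 group, and were at most 3.57% of any of the 5 endocrine-path groups. The 15 heat shock genes summed to 4843 and 6045 CPM in Neurog3 cells, against 4482 and 4886 CPM in Spp1 cells. Of the 13 tested, 3 were higher in Neurog3 cells, Hspa8 (log2 fold change 0.73 ± 0.12, adjusted p = 5.76e-06), Dnaja1 and Hsph1, and 0 were lower, with a median of 0.20. Over all tested genes, 5.07% were called higher and 3.54% lower. At an unadjusted p under 0.05 in edgeR, 5 of the 13 were higher and 3 lower. Their log2 fold changes ran from -1.73 to 0.83. Across thinned Spp1 cells the summed members correlated with the heat shock sum at r = -0.13 and 0.12, with the mitochondrial share at 0.03 and -0.01 and with full depth at -0.05 and 0.06, over 94 and 197 cells that share a library. Median mitochondrial share was 4.12% and 4.05% in Neurog3 cells, against 4.19% and 3.79% in Spp1 cells.

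**Figure D5:**
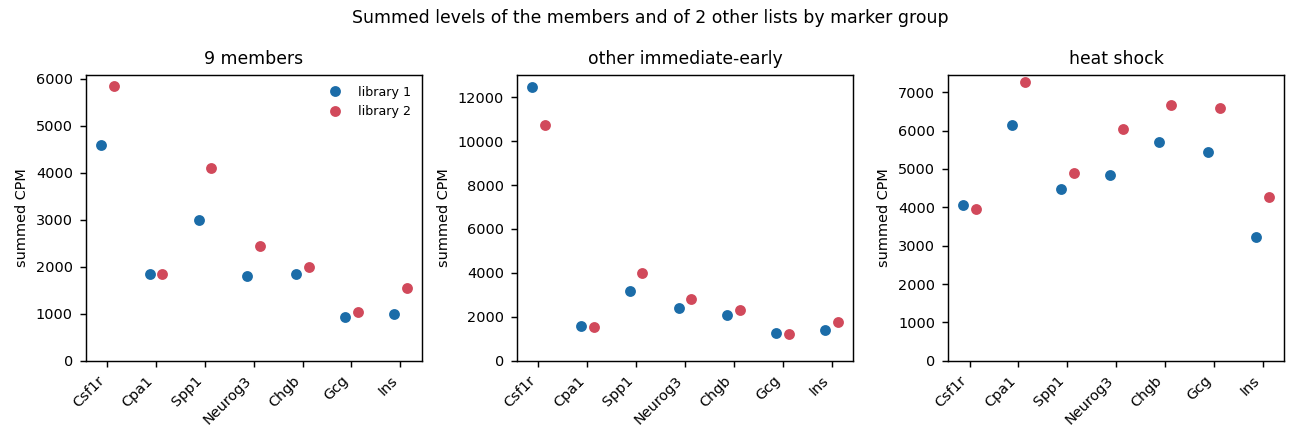
Summed CPM (y axis) of the 9 members, the 35 other immediate-early genes and the 15 heat shock genes by marker group (x axis) in library 1 (blue) and library 2 (red). The members stand at 1799.9 and 2439 CPM in the Neurog3 group against 2996 and 4103 CPM in the Spp1 group, while the heat shock genes stand at 4843 and 6045 against 4482 and 4886 CPM.

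Other immediate-early genes moved with the members in part. Of 28 tested, 6 were lower and 2 higher in Neurog3 cells than in Spp1 cells, against 3.54% and 5.07% of all tested genes. Their median log2 fold change was -0.80. Cyr61, a matricellular protein gene, had 108 and 44.3 CPM in Neurog3 cells, against 378 and 665 CPM in Spp1 cells (log2 fold change -2.77 ± 0.30, adjusted p = 3.73e-11). Klf6, a zinc-finger factor gene, had 19.0 and 41.8 CPM in Neurog3 cells, against 151 and 289 CPM in Spp1 cells (log2 fold change -2.79 ± 0.36, adjusted p = 1.44e-08). The nuclear receptor gene Nr4a1 was also lower (-1.87 ± 0.30, adjusted p = 2.34e-06). Btg2, an antiproliferative gene, rose: it had 743 and 1051 CPM in Neurog3 cells, against 333 and 385 CPM in Spp1 cells (log2 fold change 1.37 ± 0.16, adjusted p = 6.34e-10). It was lower again in Chgb cells than in Neurog3 cells (-0.96 ± 0.16, adjusted p = 4.27e-06) and lower in Gcg cells than in Chgb cells (-1.55 ± 0.23, adjusted p = 1.83e-06).

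Of the 20 upstream regulators, genes of the MAP kinase, serum response and CREB routes, 1 was higher and 0 lower in Neurog3 cells than in Spp1 cells, a share near the 5.07% of all tested genes called higher. It was Mapk3, the ERK kinase gene (log2 fold change 0.86 ± 0.21, adjusted p = 0.00386). In Chgb cells against Neurog3 cells, 3 of 28 other immediate-early genes were higher and 4 lower, against 4.27% and 6.59% of all tested genes. Among them were Cyr61 at -2.60 ± 0.52 (adjusted p = 0.000150) and Klf2 at 2.64 ± 0.65 (adjusted p = 0.00246). Of the 20 upstream regulators, 2 were higher and 1 lower, the latter being Mapk3 (-0.94 ± 0.22, adjusted p = 0.00177). Hras, a small GTPase gene, and Braf, a kinase gene, were higher there (1.25 ± 0.34 and 0.94 ± 0.31), as was 1 of 13 heat shock genes, Hsp90aa1. In Gcg cells against Chgb cells 2 of 28 other immediate-early genes were lower, Btg2 and the nuclear receptor gene Nr4a2, and 0 higher. The shares over all tested genes were 0.672% lower and 0.643% higher. In Ins cells against Chgb cells 1 of 28 other immediate-early genes was lower, Btg2 (-0.70 ± 0.18, adjusted p = 0.0162). So were 3 of 13 heat shock genes, Hsp90ab1, Hspa8 and Hsp90aa1, against 0.909% of all tested genes.

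Macrophage and acinar cells differed from Spp1 cells in this wider list too. Of 32 other immediate-early genes tested, 11 were higher and 1 lower in Csf1r cells than in Spp1 cells, against 4.41% and 4.42% of all tested genes. Their median log2 fold change was 0.95. Zfp36, which encodes an mRNA-destabilising protein, had 2536 and 3520 CPM in Csf1r cells, against 239.6 and 199.5 CPM in Spp1 cells (log2 fold change 3.64 ± 0.28, adjusted p = 1.62e-34). The NF-kB inhibitor gene Nfkbia stood at 3.91 ± 0.41 (adjusted p = 7.50e-19) and the phosphatase gene Dusp1 at 3.02 ± 0.39 (adjusted p = 1.14e-12). In Cpa1 cells against Spp1 cells, 1 of the 32 was higher and 8 lower, with a median of -1.04, against 3.62% and 3.11% of all tested genes. The 1 higher was Myc, at 154 and 159 CPM in Cpa1 cells against 7.57 and 10.8 CPM in Spp1 cells (log2 fold change 4.10 ± 0.60, adjusted p = 1.73e-09). Of the 13 heat shock genes, 3 were higher and 1 lower in Cpa1 cells than in Spp1 cells, with the mitochondrial chaperone gene Hspd1 at 1.72 ± 0.32, and 1 was higher and 2 lower in Csf1r cells than in Spp1 cells, with the co-chaperone gene Dnajb1 at 2.27 ± 0.47. Of Cpa1 cells, 77.8% and 75.0% held 3 or more UMIs of 10 cell cycle genes, against 34.0% and 33.8% of Spp1 cells; the part of the cell cycle in these differences was not tested.

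Cycling and non-cycling Spp1 cells differed little in the members' sum. Cells with 3 or more cell cycle UMIs, 33 and 72 in number, had 2914 and 4283 summed CPM, against 3052 and 3993 CPM in the other 64 and 141. Fos had 399 and 928 CPM in cycling cells, against 428 and 607 CPM in the rest, with opposite signs in the libraries. Ier2 had 318 and 319 CPM in cycling cells, against 440.3 and 460.3 CPM in the rest, and Ier3 had 24.96 and 28.6 CPM, against 50.8 and 84.6 CPM. These 2 genes were lower in the cycling cells of both libraries, although Ier3 rested on 4 and 7 UMIs there. Junb was lower as well, at 262 and 213 CPM against 288 and 259 CPM. Fosb was higher in the cycling cells of both libraries, at 337 and 687 CPM against 250 and 473 CPM. So was Atf3, at 93.6 and 196 CPM against 67.7 and 172 CPM. This split had no test.

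The genes most like the members differed with the way likeness was measured. Across single Spp1 cells, by the lower of the 2 libraries' correlations with the summed members among 5421 genes, the first 8 were Cyr61 (r = 0.39 in both libraries), Btg2 (0.38 and 0.27), Zfp36 (0.23 and 0.24), Ppp1r15a, C2cd2, Dusp1, Klf6 and Snf8. Of these, 6 were in the list of other immediate-early genes. Btg2 was among them although its level was higher in Neurog3 cells, where the members' levels were lower. Across the 14 sums of 7 groups, among 4807 genes, the first were Ski (r = 0.95), Mcl1 (0.93), Lin54 (0.89), Xiap (0.87), Setdb1, Rela, Casp8 and Rhob. Sums of the same library and cells of the same library share depth and capture, and these correlations are descriptions.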

How the data were processed

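Single-cell UMI counts per gene were analysed for 2 libraries of wild-type pancreatic cells. The authors deposited raw UMI counts, 1 table per library, made from droplet (inDrop) libraries with linear amplification and paired-end sequencing per the labels' protocols, with GRCm38 as the build per the submitters' processing notes. Neither these nor any file header names an aligner, a counter, an annotation or the use of strand. The members and the other gene lists were chosen with earlier results of these data known.

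Cells with at least 1000 UMIs, 500 genes and at most 20% mitochondrial UMIs were kept, less 13 and 11 doublets called by Scrublet in scanpy 1.11.5 (2.46% and 1.02% of passing cells). All barcodes together held 1910588 and 3425983 UMIs. Groups needed 5 UMIs of their marker (20 for Ins1 plus Ins2, 2 for Csf1r); cells of the Neurog3 and Chgb groups lay under every other threshold but that of Spp1, and Spp1 cells under all others. Mixed cells (1 and 5) were left out. The counts were summed per library and group, scaled by TMM and filtered with filterByExpr, and tested with edgeR 4.0.16 (quasi-likelihood, R 4.3.3) with group and library as terms: 10 sums of 114560 to 646601 UMIs, 4 residual degrees of freedom and 10116 genes. P-values were adjusted by Benjamini-Hochberg over all tested genes at 0.05; the markers that define groups were left out. Library is a block because the groups compared come from the same libraries, so that the test uses the spread left after the library difference. The design does not pair samples in any other way. The remaining spread of each gene was moderated by that of all genes, with 60.4 prior degrees of freedom. Comparisons of the Cpa1 and Csf1r groups, planned as levels only under 10 cells, used the added fit of 16 sums and 10675 genes, with 7 residual degrees of freedom. In that fit the prior degrees of freedom were infinite, so that the spread came from the trend over all genes.

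The fit was also run on counts simulated from a pooled profile with a common dispersion and no library effect. Such counts cannot show how the fit behaves where libraries differ. Shares of cells, co-detection and variance were described without tests after thinning each cell to 1500 UMIs, since cells are not replicates. Intervals are exact (Poisson or Clopper-Pearson, 95%), and intervals and floors cover counting error only. All members are named; from each other list and comparison at most 4 genes are named, those with the lowest adjusted p of the same sign in both libraries. Promoter sequences are RefSeq's and gene overlaps are GENCODE M21's. Alternatives were DESeq2 1.42.0 and its size factors, no filter on low counts, no replicate block, other marker and mitochondrial thresholds, doublets kept, removal of Hspa1a/Hspa1b or cycling cells, 1 library at a time, and thinning to 1000 or 2500 UMIs.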

Additional observations from a re-analysis of the deposited data

Results flagged for a closer look

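Cells that reached no marker threshold entered no comparison and still carried the members. Their summed level was 2054 CPM in library 1 (157 cells) and 2787 CPM in library 2 (310 cells). The unassigned cells with 3 or more UMIs of Col1a1, Col3a1 and Pdgfra, markers of mesenchyme, had 9162 CPM in library 1 (3 cells) and 4629 CPM in library 2 (17 cells). Those with 3 or more UMIs of Pecam1, Kdr and Cdh5, markers of endothelium, had 353 CPM (1 cell) and 1625 CPM (11 cells). The remaining 153 and 282 cells had 1869 and 2704 CPM.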

How the results depend on the processing

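Against Spp1 cells, 5 to 6 of the members were lower in Neurog3 cells under every alternative but the DESeq2 test, which called 3; its adjusted p was missing for Ier3. The library block, which pairs groups of the same library, mattered for the later steps: with no replicate block, 0 members were called in Chgb vs Neurog3, against 2 with it, and 1 in Gcg vs Chgb, against 4. In Chgb vs Neurog3 the count was also 0 with DESeq2, with higher marker thresholds and with a minimum of 5 cells, and 1 with no filter on low counts or lower marker thresholds. In Gcg vs Chgb it was 0 with DESeq2, 2 with lower thresholds and 1 with a minimum of 5 cells. In Ins vs Chgb, against 0, it was 2 with doublets kept or without Hspa1a/Hspa1b cells, and 1 with lower thresholds or at most 10% mitochondrial UMIs. In Csf1r vs Spp1, against 3, it was 1 with no filter and 1 without cycling cells. The cause was not tested.

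Signs turned for folds that had not passed: Ier3 in Chgb vs Neurog3 (0.19 with higher thresholds, 0.19 with doublets kept, 0.65 without cycling cells), Ier2 in Cpa1 vs Spp1 (0.075, lower thresholds), and in Csf1r vs Spp1 Atf3 (0.072 with DESeq2 size factors, 0.43 in DESeq2), Fos (-0.024), Jun (-0.30) and Jund (-0.26) with no filter, and Jun with lower thresholds (-0.060) or doublets kept (-0.013). Of 563 member folds recomputed, 505 kept sign and call.

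Over all genes, DESeq2 called 317 in Neurog3 vs Spp1, against 871 in edgeR, 508 against 1099 in Chgb vs Neurog3, 46 against 133 in Gcg vs Chgb and 116 against 295 in Ins vs Chgb. The minimum of 5 cells gave 550, 690, 64 and 160 in the same order, no block gave 69 and 182 in the last pair, and lower thresholds 63 and 172. Leaving out 1 library leaves no residual degrees of freedom, so that the other library gives values with no test; 10 of 54 folds moved by more than the SD of the libraries without library 1, and 27 of 54 without library 2. Cpa1 vs Spp1 without cycling cells was not run, for lack of cells. With 7 Csf1r and 9 Cpa1 cells in library 1, single values there rest on few UMIs.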

Other observations

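The 6 and 7 cells that held Neurog3 and Chgb together had summed members of 1876 and 2538 CPM, beside 1799.9 and 2439 CPM in the Neurog3 group and 1839 and 1988 CPM in the Chgb group. In these few cells Jund stood at 581 and 1108 CPM and Jun at 357 and 599.9 CPM, while Fos had 179 CPM in library 1 and 0 UMIs in library 2. These are values of 13 cells and entered no comparison of the report.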
